A study of Mus musculus with 13 samples.

Results

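The tumor necrosis factor (TNF) and lymphotoxin family was followed through 13 mouse RNA-seq libraries of T cells and myeloid cells. It was defined by gene symbol as 7 ligands (Tnf, Lta, Ltb, Tnfsf8, Tnfsf9, Tnfsf11 and Tnfsf14) and 2 receptors (Tnfrsf1a and Tnfrsf1b), and all 9 were found among the 21073 genes of the deposited table. Mice were on a C57BL/6J background and were immunized with MOG35-55, a myelin peptide, in complete Freund's adjuvant, the immunization that underlies EAE (experimental autoimmune encephalomyelitis), in which autoreactive T cells drive disease of the central nervous system. DKI mice are STAT5 tetramer-deficient double knock-in animals, in which STAT5 can still form dimers but not tetramers. The Th17 libraries came from spleen and lymph node cells taken on day 14, expanded for 3 days with the peptide under Th17 conditions and sorted as CD4+ T cells. They comprise WT (n = 2), DKI (n = 2), DKI without CCL17 (n = 3) and DKI with CCL17, a chemokine added to the culture (n = 3). The myeloid libraries are 1 each of bone marrow monocytes, spinal cord monocytes and spinal cord antigen-presenting cells (APCs), sorted on day 14 from DKI mice that also received pertussis toxin. The series' design text states that the Th17 donors received no pertussis toxin, although the labels give 1 treatment protocol, with the toxin, for every sample.

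Members of this family are mostly trimeric membrane ligands, some of which are shed, and they signal through receptors that recruit TRAF adaptors and activate NF-kB or, for receptors with a death domain, can start cell death. TNF and the soluble lymphotoxin alpha homotrimer share the receptors TNFR1 (Tnfrsf1a), which is broadly expressed and has a death domain, and TNFR2 (Tnfrsf1b), which has none and is known from lymphoid and myeloid cells. Lymphotoxin alpha and beta also form a membrane heterotrimer, whose receptor is LTBR. In EAE, TNF from myeloid cells and T cells is a long-known mediator of inflammation in the central nervous system.

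Several limits apply to every comparison. No WT myeloid library was analysed here, so the genotype was compared in Th17 cells only. The labels do not say whether replicates came from separate animals or cultures, and p-values then measure only the spread between these samples, which may be technical. Neither animal age nor pooling of animals is given. Gene-level values do not check the knock-in, which changes the protein and not the presence of the transcript. The libraries hold an estimated 12600000 to 31800000 assigned reads. All 8 T cell markers were at RPKM of 1 or more in every Th17 library, with a summed level of 2146 to 3123 RPKM (RPKM is the read number scaled to gene length and to the assigned reads of the library). The 10 monocyte and macrophage markers summed to 15130 to 22340 RPKM in the myeloid libraries. They summed to 59.46 to 163.3 RPKM in the 4 WT and DKI libraries and to 628.1 to 964.0 RPKM in the 6 libraries of the CCL17 experiment. Levels of these sets of cultures are therefore given apart below, but the comparison with myeloid cells takes the DKI libraries of both sets together. Neutrophil markers summed to 4588 RPKM in the bone marrow library and to 508.5 and 640.6 RPKM in the spinal cord monocytes and APCs. S100a8 was the highest of these 8 markers in each, with log2(RPKM + 1) of 11.65, 8.83 and 8.84 in the same order. The median of the 8 was 7.62, 2.29 and 3.22 on that scale.

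Of the ligand genes, 3 lie side by side on chromosome 17 of the mouse genome (GRCm38, the same assembly as mm10), within the major histocompatibility complex. Ltb (Entrez 16994) spans chr17:35194507-35196305, Tnf (21926) chr17:35199367-35202007 and Lta (16992) chr17:35203165-35205578. Ltb and Tnf are 3061 bases apart and Tnf and Lta 1157 bases apart, so the cluster covers 11072 bases. Tnfsf9 (21950, chr17:57105287-57107758) and Tnfsf14 (50930, chr17:57189474-57194181) lie 81715 bases apart on the same chromosome. Tnfsf8 (21949) is at chr4:63831202-63861508, Tnfsf11 (21943) at chr14:78277446-78308043, Tnfrsf1a (21937) at chr6:125349723-125362483 and Tnfrsf1b (21938) at chr4:145212368-145246870. Tnfrsf1a lies 35837 bases from Ltbr, and Tnfrsf1b lies 20261 bases from Tnfrsf8, the CD30 gene.

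RefSeq promoter sequences (GRCm38.p6) were matched for 8 of the 9 members. The 250 bases before the annotated start are shown for Tnf, which differed between monocyte sources, for Ltb and Tnfsf11, which lay on opposite sides of the difference between DKI culture sets, and for Tnfrsf1b, the TNF receptor whose level varied most among the Th17 libraries. This choice and the motifs were made after the values were seen. Each is written 5′ to 3′ on the gene's own strand. Capitals mark matches, on either strand, to TATAAA (found in 12.4% of 32851 RefSeq promoters of this length), to TTCNNNGAA, the core sequence bound by STAT dimers (7.02%), or to the NF-kB consensus (3.9%).
Tnf: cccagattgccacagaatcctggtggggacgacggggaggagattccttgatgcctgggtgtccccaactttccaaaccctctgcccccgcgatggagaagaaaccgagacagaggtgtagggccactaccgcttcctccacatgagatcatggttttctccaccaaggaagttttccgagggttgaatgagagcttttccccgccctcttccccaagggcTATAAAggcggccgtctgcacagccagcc
Ltb: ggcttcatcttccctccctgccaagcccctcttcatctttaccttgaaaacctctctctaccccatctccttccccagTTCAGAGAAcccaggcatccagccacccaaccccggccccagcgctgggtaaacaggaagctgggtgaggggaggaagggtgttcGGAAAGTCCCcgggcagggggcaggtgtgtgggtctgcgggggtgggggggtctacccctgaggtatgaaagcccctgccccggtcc
Tnfsf11: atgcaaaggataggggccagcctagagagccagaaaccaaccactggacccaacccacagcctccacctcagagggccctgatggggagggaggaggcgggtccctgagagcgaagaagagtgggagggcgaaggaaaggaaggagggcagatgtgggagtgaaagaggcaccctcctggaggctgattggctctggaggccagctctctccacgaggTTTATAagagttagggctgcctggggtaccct
Tnfrsf1b: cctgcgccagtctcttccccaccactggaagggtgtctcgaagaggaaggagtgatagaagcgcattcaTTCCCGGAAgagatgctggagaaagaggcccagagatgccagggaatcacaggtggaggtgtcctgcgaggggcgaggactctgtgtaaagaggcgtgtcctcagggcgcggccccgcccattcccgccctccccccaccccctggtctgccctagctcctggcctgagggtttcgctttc
The Tnf window (chr17:35202008-35202257, minus strand) holds TATAAA at positions -29 to -24, counted back from the start. The Ltb window (chr17:35194257-35194506, plus strand) holds the NF-kB match GGAAAGTCCC at -87 to -78 and TTCAGAGAA at -172 to -164. The Tnfsf11 window (chr14:78308044-78308293, minus strand) holds TTTATA, the reverse complement of TATAAA, at -32 to -27. The Tnfrsf1b window (chr4:145246871-145247120, minus strand) holds TTCCCGGAA at -181 to -173. A match describes the letters in this window only, and binding was not measured.

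Within the Th17 libraries Ltb was the most abundant of the 7 ligands and Tnfsf14 the least abundant in all 10, on the per-length RPKM scale. All levels below are log2(RPKM + 1) unless another scale is named. Ltb, the membrane anchor of the lymphotoxin heterotrimer, was at 8.16 and 8.21 in WT, 7.78 and 8.37 in DKI, 7.15, 7.09 and 7.09 without CCL17, and 7.29, 6.96 and 6.94 with CCL17. Lta, its partner, was at 4.71 and 4.74 in WT, 5.20 and 3.97 in DKI, 4.0, 4.13 and 3.94 without CCL17, and 3.95, 3.86 and 3.99 with CCL17. Tnf, shared by TNFR1 and TNFR2, was at 5.23 and 4.84 in WT, 5.82 and 4.73 in DKI, 5.33, 5.62 and 5.74 without CCL17, and 5.19, 5.47 and 5.47 with CCL17. Ltb was thus separated from its neighbours on the chromosome in every Th17 library, and the DKI pair held both the highest and the lowest Tnf level of the 10.

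Among the other ligands, Tnfsf8, the CD30 ligand, was at 6.43 and 6.05 in WT, 6.56 and 5.77 in DKI, 5.94, 6.46 and 6.52 without CCL17, and 6.00, 6.64 and 6.50 with CCL17. Tnfsf11 (RANKL), known for driving osteoclast formation and lymph node development, was at 5.12 and 5.18 in WT, 6.19 and 4.84 in DKI, 6.34, 6.46 and 6.55 without CCL17, and 6.09, 6.41 and 6.53 with CCL17. These ligands took the ranks just below Ltb in 9 of 10 Th17 libraries. The exception was WT replicate 1, where Tnf stood above Tnfsf11. Tnfsf9 (4-1BB ligand, a costimulator of T cells) was at 3.43 and 3.68 in WT, 3.95 and 4.37 in DKI, 4.30, 4.28 and 4.04 without CCL17, and 4.09, 4.03 and 4.09 with CCL17. Tnfsf14 (LIGHT), which binds HVEM and LTBR, was at 2.18 to 2.60 in all 10.

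**Figure D1:**
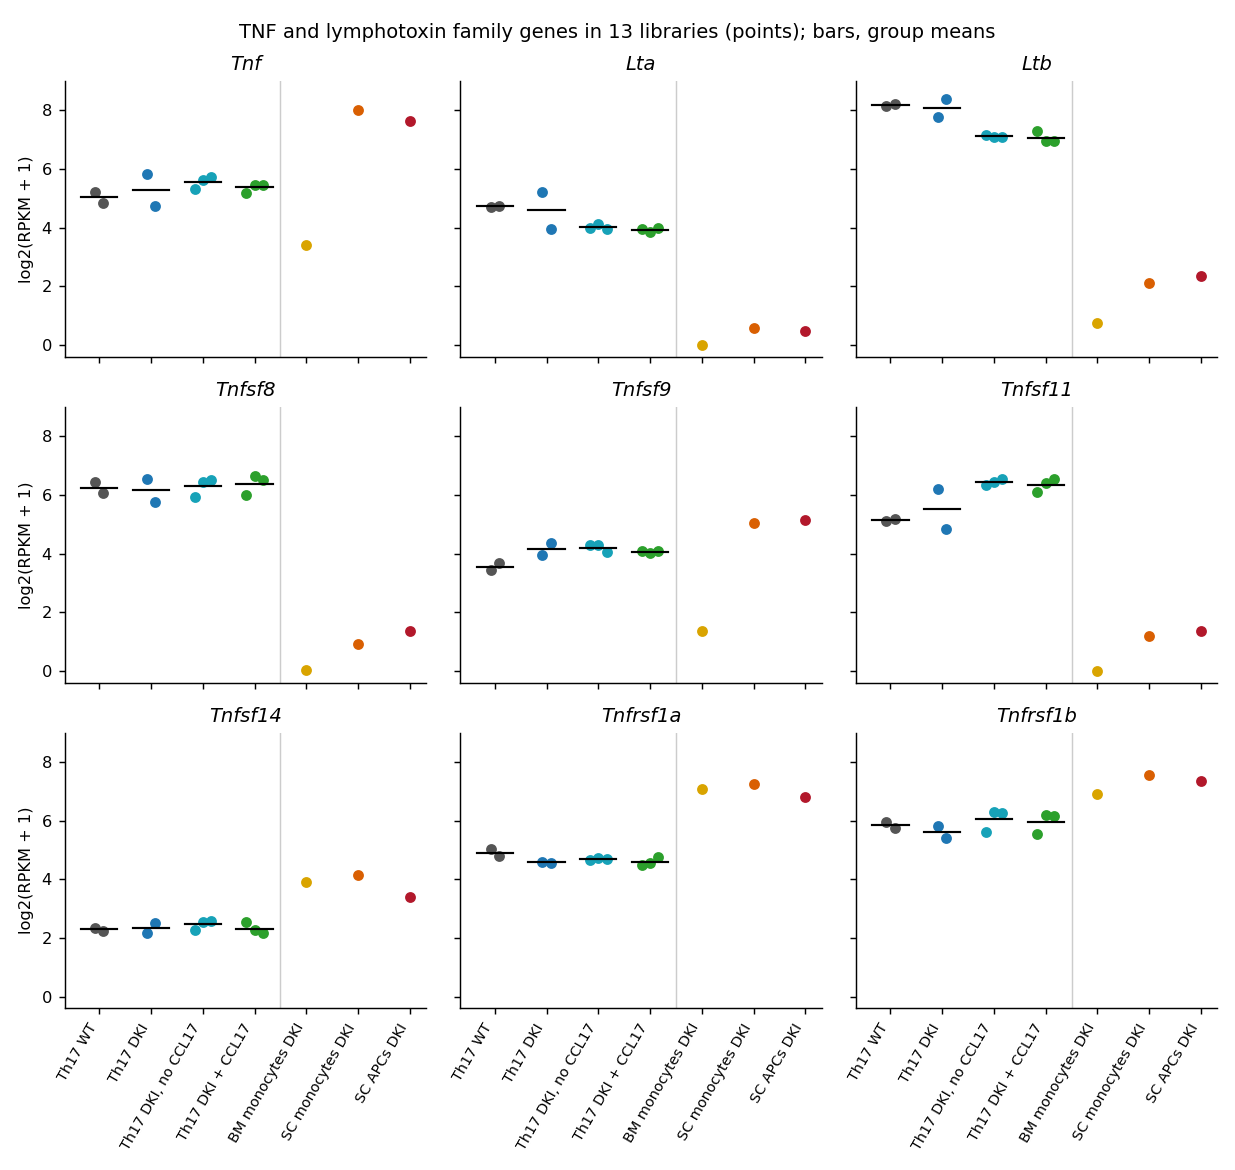
Level of each of the 9 genes, as log2(RPKM + 1), in each of the 13 libraries, 1 point per library and 1 panel per gene, with bars at the means of the Th17 groups (BM, bone marrow; SC, spinal cord). Ltb, Lta, Tnfsf8 and Tnfsf11 were high in Th17 libraries and low in the myeloid ones, Tnfrsf1a, Tnfrsf1b and Tnfsf14 were higher in the myeloid libraries, and Tnf and Tnfsf9 were low in bone marrow monocytes and high in both spinal cord libraries.

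The ligands and receptors were distributed unequally between cultured T cells and sorted myeloid cells of the DKI genotype. The Th17 cells had been expanded with peptide in culture, some with CCL17, and the myeloid cells came from bone marrow or spinal cord. Cell class, culture, tissue and, by the design text, pertussis toxin cannot be told apart here. The 3 myeloid libraries are 1 each of different populations, so the spread in this test includes the differences between them. Ltb, Tnfsf8, Tnfsf11 and Lta were higher in the 8 DKI Th17 libraries, while the receptors Tnfrsf1a and Tnfrsf1b and the ligand Tnfsf14 were higher in the 3 DKI myeloid libraries. This made 7 of 9 members called at an adjusted p under 0.05 (limma, Benjamini-Hochberg over 11652 genes), where 74.3% of all genes tested were called, so a call by itself does not set the family apart. By direction, 4 members were higher in Th17 cells, as were 59.5% of all genes, and 3 were lower, as were 14.8%. The members' median log2 difference, Th17 minus myeloid, was 0.30, and that of all genes was 0.63. Of all calls, 80.1% were higher in Th17 cells, a split that fell to 50.3% when each library was centred on its median gene, and the 7 members kept their direction and their call under that centring. In bulk libraries fewer cells of a type and less RNA per cell cannot be told apart.

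Ltb was at 0.75 in bone marrow monocytes, 2.10 in spinal cord monocytes and 2.35 in spinal cord APCs, against a range of 6.94 to 8.37 in DKI Th17 cells. The difference was 5.60 on the log2(RPKM + 1) scale (SE 0.37, adjusted p = 2.4e-07 by limma), and the groups did not overlap. Tnfsf8 was at 0.02, 0.91 and 1.37 in the same order of myeloid libraries and differed by 5.53 (SE 0.27, adjusted p = 3.24e-08). Tnfsf11 was at 0, 1.18 and 1.35 and differed by 5.33 (SE 0.37, adjusted p = 3.84e-07). Lta was at 0, 0.57 and 0.47 and differed by 3.79 (SE 0.26, adjusted p = 3.4e-07). For all 4 of these T cell-side ligands, every Th17 library lay above every myeloid library.

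Both TNF receptors lay on the myeloid side. Tnfrsf1a was at 7.09 in bone marrow monocytes, 7.26 in spinal cord monocytes and 6.80 in spinal cord APCs, and at 4.48 to 4.75 in the DKI Th17 libraries, a difference of -2.42 (SE 0.11, adjusted p = 1.29e-08 by limma). Tnfrsf1b was at 6.90, 7.56 and 7.35 in the myeloid libraries and 5.41 to 6.29 in the DKI Th17 libraries, a difference of -1.36 (SE 0.22, adjusted p = 0.000211). Tnfsf14 was at 3.93, 4.17 and 3.39 and differed by -1.44 (SE 0.17, adjusted p = 1.73e-05). The groups did not overlap for these 3 genes, which makes 7 of 9 members with no overlap, against 58.1% of all genes tested.

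Tnf and Tnfsf9 were not called, and their myeloid levels lay on both sides of the Th17 range. Tnf was at 3.41 in bone marrow monocytes, below every Th17 library, and at 8.03 in spinal cord monocytes and 7.63 in APCs, above every one, so that the difference of -0.94 had an SE of 0.76 (adjusted p = 0.278 by limma). Tnfsf9 was at 1.36, 5.05 and 5.13 and differed by 0.30 (SE 0.63, adjusted p = 0.678), and its sign turned to -0.31 with median centring. Without the bone marrow library both were called lower in Th17 cells, by -2.41 for Tnf (adjusted p = 6.27e-06) and -0.95 for Tnfsf9 (adjusted p = 2.57e-05), and 9 of 9 members were then called, where 80.4% of 11519 genes were.

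**Figure D2:**
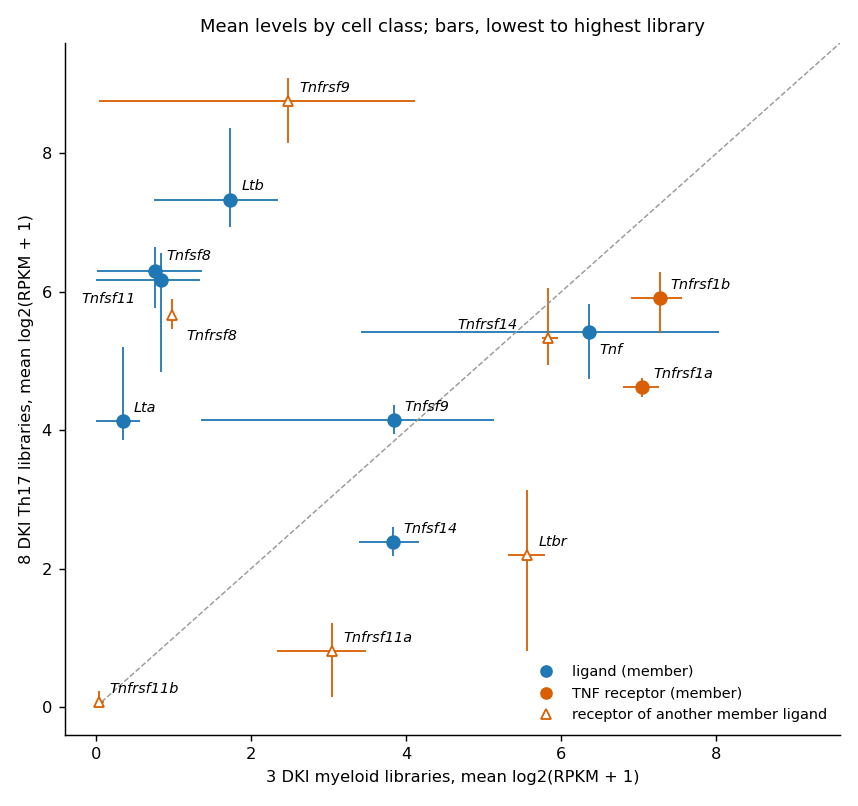
Mean log2(RPKM + 1) of the 9 genes (filled circles) and of the 6 receptors of the other ligands (open triangles) in the 8 DKI Th17 libraries (vertical axis) against the 3 DKI myeloid libraries (horizontal axis), with bars from the lowest to the highest library and a dashed line of equal level. Ltb, Tnfsf8, Tnfsf11 and Lta lie far above the line, Tnfrsf1a, Tnfrsf1b and Tnfsf14 below it, and the bars of Tnf and Tnfsf9, whose lowest myeloid library is the bone marrow, cross it.

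The receptors of the other ligands had sides of their own. LTBR, which receives the lymphotoxin heterotrimer and LIGHT, was encoded mainly on the myeloid side, with Ltbr at 5.80, 5.57 and 5.32 in the myeloid libraries and at 0.82 to 3.14 in the DKI Th17 libraries (difference -3.36, SE 0.51, adjusted p = 0.000117 by limma). Tnfrsf11a, the receptor for RANKL (RANK), was at 2.34, 3.32 and 3.48 in myeloid libraries and 0.15 to 1.21 in DKI Th17 libraries (difference -2.23, adjusted p = 2.25e-05), and Tnfrsf11b, its soluble decoy receptor, was at 0.24 or less in all 13. The receptors of CD30 ligand and 4-1BB ligand were on the T cell side, with a difference of 4.69 for Tnfrsf8 (adjusted p = 5.06e-10) and 6.27 for Tnfrsf9 (adjusted p = 7.31e-06). Tnfrsf14 (HVEM) was at 5.75 to 5.96 in myeloid and 4.94 to 6.05 in DKI Th17 libraries and was not called (difference -0.50, adjusted p = 0.0639).

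Between monocytes of the inflamed spinal cord and of the bone marrow, Tnf and Tnfsf9 differed far more than the receptors and were higher in the spinal cord. Each group is 1 library, so no test was made, and intervals are exact binomial 95% intervals (Clopper-Pearson) on estimated reads, which cover counting error only. Among genes with an RPKM of at least 5 in either library, 11.4% of 8182 differed by at least 4-fold on the log2(RPKM + 1) scale, 6.23% being higher in spinal cord, and 2 of the 5 members that passed this level were among the higher ones. Tnf was at 9.67 RPKM (504 estimated reads) in bone marrow monocytes and 260.2 RPKM (11259 reads) in spinal cord monocytes, 26.9-fold higher (24.6 to 29.5). Tnfsf9 was at 1.56 RPKM (64 reads) and 32.15 RPKM (1095 reads), 20.6-fold higher (16 to 27). The receptors differed little, with Tnfrsf1b 1.58-fold higher (1.54 to 1.61) and Tnfrsf1a 1.12-fold higher (1.09 to 1.16), and Tnfsf14 was 1.19-fold higher (1.08 to 1.31). The median gene differed by -0.37 on the log2 scale, and centring on it moved the share of higher genes among those 4-fold apart from 54.8% to 65.4%.

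The 4 ligands of the T cell side were under 5 RPKM in both monocyte libraries. Lta and Tnfsf11 had no reads in bone marrow monocytes, and against a floor of 3 reads in that library they were at least 7.23-fold and at least 30.1-fold higher in spinal cord monocytes (18 and 75 reads). Ltb was 4.85-fold higher (3.15 to 7.95) and Tnfsf8 63.4-fold higher (14.4 to 449), the latter from 2 and 89 reads. T cell markers moved with these genes: the 8 markers summed to 0.342 RPKM in bone marrow monocytes, where 4 were at 0, and to 28.0 RPKM in spinal cord monocytes and 29.8 RPKM in APCs, where all 8 reached 1 RPKM. As a share of the Th17 median the T cell markers stood at 1.17% in spinal cord monocytes, beside 3.24% for Lta, 2.22% for Ltb, 1.03% for Tnfsf8 and 1.67% for Tnfsf11. Microglia markers summed to 190.5, 485.2 and 1226 RPKM in bone marrow monocytes, spinal cord monocytes and APCs. The part of these cells in the ligand levels was not tested.

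**Figure D3:**
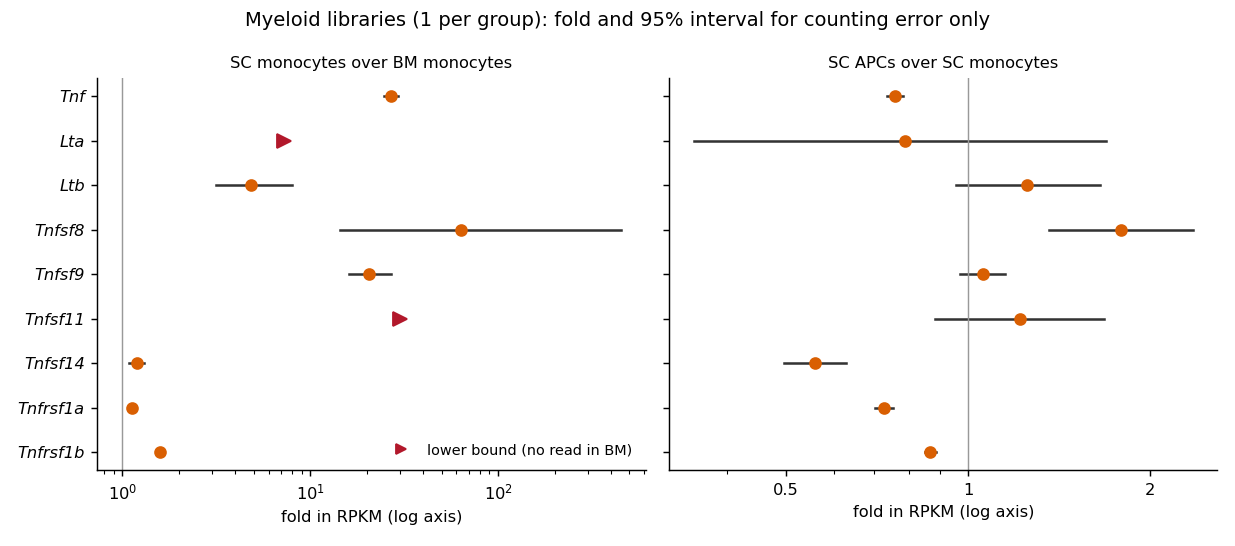
RPKM fold on a log axis for the 9 genes, spinal cord (SC) over bone marrow (BM) monocytes (left) and SC APCs over SC monocytes (right), with exact binomial 95% intervals on estimated reads and arrowheads for lower bounds against 3 reads. Tnf and Tnfsf9 stand at 26.9-fold and 20.6-fold on the left, and on the right the 9 genes lie between 0.558 and 1.79.

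Genes of the NF-kB pathway and TNF response genes differed between the same monocyte libraries. Of 12 genes for NF-kB subunits and inhibitors, 6 were at least 4-fold higher in spinal cord monocytes and 0 lower (median log2 difference 2.26, against -0.37 for all genes, of which 6.23% were higher). The leading ones were feedback inhibitors of NF-kB and its cofactors, with differences of 5.54 for Tnfaip3 (A20), 3.81 for Nfkbia, 3.80 for Nfkbie and 3.67 for Nfkbiz. Of 17 TNF response genes above the level, 12 were higher and 1 lower (median 2.98), led by Il1b at 8.76, Cxcl10 at 6.74, Cxcl2 at 6.65 and Cxcl1 at 5.75. Of 32 genes of TNF receptor signalling, 1 was 4-fold higher and 0 lower, with Traf1, a TRAF adaptor gene, at 4.50 and a list median of -0.10. In the list of TNF shedding and mRNA decay genes, 2 of 11 were higher, both encoding proteins of cytokine mRNA decay (Zc3h12a 3.47, Zfp36l1 2.88). The name of the TNF response list does not show that TNF acted on its genes, here or below, and the signal was not tested. Cell markers also differed between these monocyte libraries: 7 of 7 neutrophil markers were at least 4-fold lower in spinal cord, and 3 of 7 microglia markers were higher and 0 lower. Their part was not tested.

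Spinal cord APCs differed little from spinal cord monocytes in the members that passed the level. Of 7499 genes 0.32% were at least 4-fold apart, and 0 of 5 members were. Tnfsf14 was 1.79-fold lower in APCs (1.59 to 2.02), Tnfrsf1a 1.38-fold lower (1.33 to 1.42), Tnf 1.32-fold lower (1.28 to 1.36) and Tnfrsf1b 1.15-fold lower (1.13 to 1.18). The Tnfsf9 ratio of 1.06 had an interval that includes 1 (0.97 to 1.15). Under the level, Tnfsf8 was 1.79-fold higher in APCs (1.36 to 2.35), from 89 and 146 reads.

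The genotype was compared in Th17 cells, WT against DKI, and no member passed the test. Of 11078 genes 0 (0%) were called, while 1879 genes (17%) had an unadjusted p under 0.05. Of the members, Tnfsf9 and Tnfrsf1a were at an unadjusted p under 0.05, and these 2 of 9 were also the members whose groups did not overlap, as was so for 39.9% of all genes. Tnfsf9 stood at 3.95 and 4.37 in DKI against 3.43 and 3.68 in WT, a difference of 0.60 (SE 0.15, adjusted p = 0.147 by limma). Tnfrsf1a stood at 4.58 and 4.57 in DKI against 5.03 and 4.81 in WT, a difference of -0.34 (SE 0.11, adjusted p = 0.197). In the other 7 the ranges overlapped, with differences from -0.25 for Tnfrsf1b (adjusted p = 0.665) to 0.37 for Tnfsf11 (adjusted p = 0.613). The members' median difference was -0.08, against 0.03 for all genes.

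For all members but Tnfsf9 and Tnfrsf1a, 7 of 9, the DKI pair differed within itself more than the DKI mean differed from the WT mean. The same count was not made over all genes, so it does not set the family apart. RPKM in DKI replicate 1 was 2.61 times that in replicate 2 for Tnfsf11, 2.44 times for Lta and 2.16 times for Tnf, while Ltb was 1.5 times higher in replicate 2. The 6 Th17 markers moved with this gap, with a summed level of 1846 RPKM in replicate 1 and 260.8 RPKM in replicate 2, against 672.2 and 677.2 RPKM in WT, and their part in it was not tested. Without DKI replicate 2, 2 members were called higher in DKI, Tnfsf11 by 1.04 (adjusted p = 0.022 by limma) and Lta by 0.48 (adjusted p = 0.0492). In that fit 580 of 10957 genes (5.29%) were called, 285 higher and 295 lower, so the count of 0 over all genes depended on this library too. Leaving out WT replicate 2 gave 123 genes (1.13%) and no member. Without DKI replicate 1, 0 were called and the differences were -0.31 for Tnfsf11, -0.76 for Lta, -0.30 for Tnf and 0.18 for Ltb. The directions for these 4 genes therefore depended on 1 library. Monocyte and macrophage markers summed to 163.3 and 76.8 RPKM in WT and to 59.46 and 68.26 RPKM in DKI.

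Adding CCL17 to DKI Th17 cultures gave no member that passed the test. Of 11297 genes 0 (0%) were called, 411 genes (3.64%) had an unadjusted p under 0.05, and of the members 0 did. The ranges overlapped in all 9 members, where 9.49% of all genes had ranges apart. The differences, with minus without CCL17, ran from -0.19 for Tnf (SE 0.13, 95% interval -0.49 to 0.12) to 0.07 for Tnfsf8 (SE 0.22, 95% interval -0.44 to 0.59), and every member's adjusted p was 0.999 by limma. Of the 9 members 8 had a negative difference, with a median of -0.09, against -0.01 for all genes. The share of all genes with a negative difference was not counted, so 8 of 9 does not set the family apart. Within pairs of the same replicate number, Tnf, Tnfsf11 and Tnfrsf1b were lower with CCL17 in 3 of 3 pairs, by 0.14, 0.16 and 0.27 for Tnf. The other 6 members went both ways. No label gives this pairing, and the share of all genes lower in every pair was not counted, so the pattern does not set these members apart. The 10 monocyte and macrophage markers had a median difference of -0.20 between the same arms, with 1 above 0, and their part was not tested. With the replicate number as a block Tnf had an adjusted p of 0.190, and 0 members were called.

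Within the CCL17 experiment replicate 1 of each arm stood apart from the others for some members. Tnfrsf1b was at 5.63 without and 5.55 with CCL17 in replicate 1, and at 6.16 to 6.29 in the other 4 libraries. Tnfsf8 was at 5.94 and 6.00 in replicate 1 and at 6.46 to 6.64 in the others. Neutrophil markers summed to 322.5 and 457.9 RPKM in replicate 1 and to 123.7 to 134.8 RPKM in the others, and Th17 markers to 1749 and 1414 RPKM against 3268 to 3413 RPKM. Whether these moved the members was not tested.

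**Figure D4:**
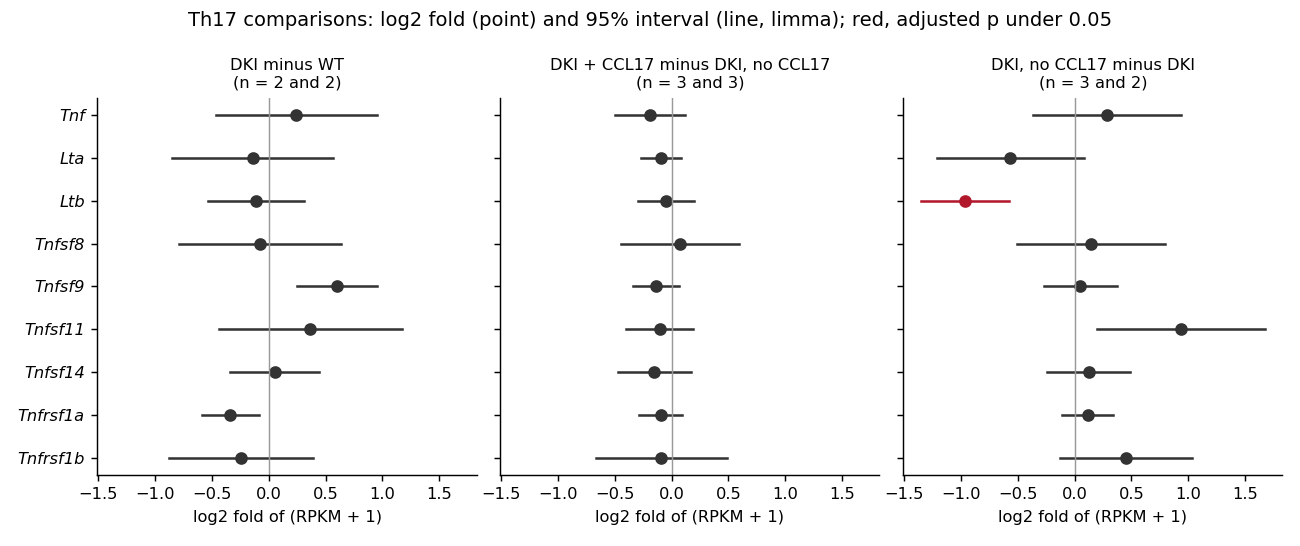
Log2 difference of each of the 9 genes (point) with its 95% interval (line) from limma in DKI against WT, with against without CCL17, and DKI without CCL17 against DKI. Red marks an adjusted p under 0.05, which Ltb alone among the 9 reached, in the comparison of DKI culture sets.

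The labels give 2 sets of DKI Th17 cultures without CCL17, the DKI pair of the genotype comparison and the untreated arm of the CCL17 experiment, and their difference serves as a measure of how far cultures of 1 labelled condition differ. It shares the DKI pair with the genotype comparison and the untreated arm with the CCL17 comparison, and the class comparison uses all of these libraries. Ltb was lower in the CCL17 experiment, at 7.15, 7.09 and 7.09 against 7.78 and 8.37, a difference of -0.97 (SE 0.17, adjusted p = 0.00362 by limma). It was the 1 member called of 9, where 33.2% of 11507 genes were called (15.4% higher and 17.8% lower in the CCL17 experiment). Tnfsf11 lay higher, at 6.34, 6.46 and 6.55 against 6.19 and 4.84, and missed the threshold (difference 0.94, SE 0.32, adjusted p = 0.0548). The groups did not overlap for these genes and for Tnfrsf1a (4.67, 4.73 and 4.69 against 4.58 and 4.57, difference 0.12, adjusted p = 0.408), which is 3 of 9 members against 55.6% of all genes.

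Single libraries decided further calls here. Without DKI replicate 1, Tnfsf11 (1.61, adjusted p = 0.00087 by limma) and Tnf (0.83, adjusted p = 0.0209) were called higher beside Ltb, 3 of 9 members where 31.0% of 11346 genes were called. Without DKI replicate 2, the Tnfsf11 difference was 0.26 (adjusted p = 0.276) and that of Tnf was -0.25, and Lta was called lower (-1.18, adjusted p = 0.000583) beside Ltb, 2 of 9 members where 27.8% of 11362 genes were called. The members' share of calls was thus near that of all genes in both fits. Without replicate 3 of the untreated arm 22.2% of genes were called, and Ltb was the 1 member among them. Of all calls 46.5% were higher in the CCL17 experiment, and 35.9% after quantile normalization, under which Ltb remained the 1 member called.

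The receptors LTBR, 4-1BB and HVEM also differed between these culture sets. Ltbr was at 0.82 and 0.83 in the DKI pair and at 2.35, 3.06 and 3.14 in the untreated arm, a difference of 2.03 (SE 0.27, adjusted p = 0.00117 by limma). Tnfrsf9 was higher by 0.84 (SE 0.12, adjusted p = 0.00162) and Tnfrsf14 lower by -0.85 (SE 0.13, adjusted p = 0.00184). Of 18 TNF response genes tested, 13 were called higher and 0 lower (median 1.64, against -0.01 for all genes, of which 15.4% were called higher), among them the chemokine genes Cxcl2 (4.05) and Cxcl1 (2.94), the adhesion gene Vcam1 (3.17) and Plaur (2.74), the urokinase receptor gene. Markers of other cells moved with them: 8 of 10 monocyte and macrophage markers were called higher and 1 lower (median 3.67), and 7 of 7 B cell markers and 5 of 6 neutrophil markers were called higher. T cell markers moved the other way, beside the lower Ltb and Tnfrsf14: 5 of 8 were called lower and 0 higher (median -0.31), with sums of 2969 and 2985 RPKM in the DKI pair and 2274 to 2424 RPKM in the untreated arm. Of 6 Th17 markers, by contrast, 2 were called higher and 0 lower (median 0.63). Ltbr in Th17 libraries was 1.64% to 2.07% of its myeloid median in the WT and DKI libraries and 6.64% to 16.8% in the CCL17 experiment. The summed monocyte and macrophage markers were 0.387% to 1.06% and 4.09% to 6.28% of theirs. That sum is weighted to Lyz2, the highest of the 10 in each myeloid library, and does not stand for each marker. In the untreated arm Cd68 was at 6.90 to 7.83, against 9.54 in spinal cord monocytes. Cd14 was at 3.78 to 4.51 there, against 10.61. The part of such cells in these differences was not tested.

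Genes that act downstream of the receptors were counted in the same comparisons. Between the DKI culture sets 15.4% of all genes were called higher and 17.8% lower, and between Th17 and myeloid cells 59.5% and 14.8%. Of 33 genes of TNF receptor signalling, 2 were called higher and 9 lower between the culture sets (median -0.14), which in both directions together is near the 33.2% of all genes. Those with the smallest p were the kinase genes Map3k14 (NIK, -0.75, adjusted p = 0.000906 by limma), Map3k5 (-0.48) and Ikbkb (-0.54). Of 12 genes for NF-kB subunits and inhibitors, 1 was called higher (Nfkbia, 0.43) and 3 lower (Bcl3 -0.60, Rela -0.30 and Nfkbid -0.43). In the comparison of Th17 with myeloid cells, 14 of the 33 signalling genes were called higher in Th17 cells and 4 lower, a smaller share than the 74.3% of all genes. In that comparison 4 of 12 genes for TNF shedding and mRNA decay were lower in Th17 cells, among them Zfp36 (tristetraprolin, which binds Tnf mRNA and speeds its decay, -4.33, adjusted p = 1.21e-06) and Adam17, the enzyme that sheds TNF from the membrane (-1.32, adjusted p = 1.81e-05), and 3 were higher. In the genotype and CCL17 comparisons 0 genes of these lists were called, as was so for all genes.

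Other members of the superfamily were counted beside the 9, against the same shares of all genes (59.5% higher and 14.8% lower in Th17 than in myeloid cells, 15.4% and 17.8% between the culture sets). Of 8 other ligand genes tested between Th17 and myeloid cells, 5 were called higher in Th17 cells, among them Cd40lg (5.70), the ligand by which helper T cells stimulate B cells and myeloid cells, and Cd70 (3.65), and 3 lower, among them Tnfsf13 (APRIL, -3.11). Of 15 other receptor genes, 8 were higher in Th17 cells, among them the costimulatory receptors Tnfrsf4 (OX40, 6.02), Tnfrsf18 (GITR, 4.81) and Tnfrsf25 (4.60), and 5 lower. Between the DKI culture sets 2 other ligand genes were called higher (Tnfsf12 1.32 and Cd70 0.77) and 1 lower (Fasl, the ligand of the death receptor FAS, -1.01) of 7 tested. Of 15 other receptor genes 2 were called higher, Tnfrsf13c (BAFF receptor of B cells, 1.72) and Tnfrsf21 (1.65), and 6 lower, with Cd27 at -1.87. In spinal cord against bone marrow monocytes 2 of 7 other receptor genes were at least 4-fold higher, Tnfrsf12a (3.80) and Cd40 (3.38), the receptor of the Cd40lg product. Of 6 neighbours of the Tnf cluster, 2 were called higher between the DKI culture sets, Aif1 (2.29) and Lst1 (1.63), both known from myeloid cells, and 4 were higher and 2 lower in Th17 than in myeloid cells.

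Ratios within a library set members against each other on the RPKM scale, which is per length. Ltb exceeded Lta by 11.3 and 11.5 times in WT, 6.12 and 22.5 times in DKI, 9.46, 8.16 and 9.42 times without CCL17 and 10.8, 9.11 and 8.19 times with CCL17. The DKI pair held the lowest and the highest ratio of all 10, because Lta was higher and Ltb lower in replicate 1 than in replicate 2. Tnfrsf1b exceeded Tnfrsf1a by 1.81 to 3.17 times in the Th17 libraries. In the myeloid libraries the ratio was 0.877 in bone marrow monocytes, 1.23 in spinal cord monocytes and 1.47 in spinal cord APCs, below every Th17 library.

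**Figure D5:**
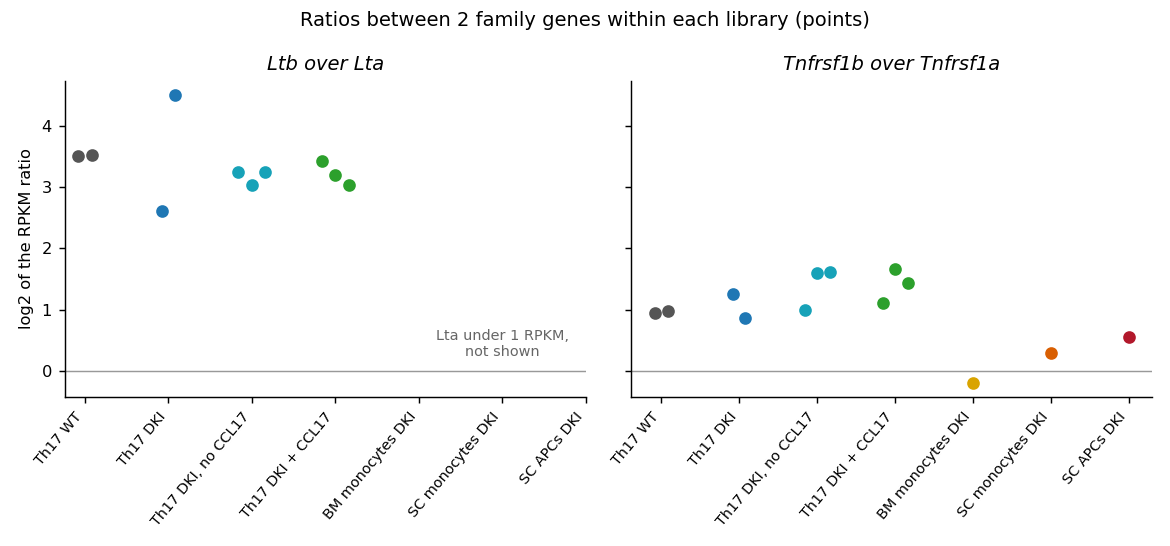
RPKM ratio of Ltb to Lta in the 10 Th17 libraries and of Tnfrsf1b to Tnfrsf1a in all 13, as log2 of the ratio, 1 point per library. The DKI pair spans ratios of 6.12 to 22.5 for Ltb over Lta, and the myeloid libraries, at ratios of 0.877 to 1.47, lie below the Th17 libraries for the receptor ratio.

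The genes whose levels ran most alike to each member were listed by Pearson's r over the 13 libraries, which share their cell class, and over the 10 Th17 libraries, as a description. Over 13 libraries Tnf ran most like Nfkbiz (r = 0.99), Slc25a37 (0.98) and Tnfaip3 (0.98), and Tnfsf9 was the member closest to it (0.82). Ltb ran most like Ablim1, Gimap3 and Grap2, and Tnfsf8 like Tigit, Pdcd1 and Sdcbp2, with 0.996 for Sdcbp2 as the lowest r of these 6. Tnfrsf1a ran most like Bach1 (0.99), Pxn (0.99) and Sfxn5 (0.99), and Tnfrsf1b like Il18 (0.98), Atp7a (0.97) and Trps1 (0.97). Over the 10 Th17 libraries, where the class no longer separates them, Tnf ran most like Amz2 (0.97), Tigit (0.97) and S1pr2 (0.96), and its r with Lta, its neighbour on the chromosome, was 0.09 and with Ltb -0.66. Ltb and Tnfsf11 ran opposite to each other over the same 10 (r = -0.95). The WT libraries and DKI replicate 2 lie at 1 end of that relation and the CCL17 experiment at the other. DKI replicate 1 had Ltb at 7.78, between these ends, and Tnfsf11 at 6.19, within the range of the CCL17 experiment (6.09 to 6.55). Tnfsf14 had no gene above an r of 0.88 there, at a level of 2.18 to 2.60.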

How the data were processed

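RNA extraction used the RNeasy Plus Mini Kit and library preparation the KAPA mRNA HyperPrep chemistry, per the labels' protocols. The submitters' processing notes name Subread, featureCounts and build mm10. Their versions, settings, strand handling and annotation are not given in the sources used here. Values deposited by the authors are log2(RPKM + 1), with 0.0001 for genes without reads, set to 0 here. Base 2 was checked on the values, whose length-weighted sums were 1116000 to 1145000, against 9100000 to 16660000 in base e. Gene symbols came from Entrez identifiers, of which 20857 matched RefSeq (GRCm38.p6) and 216 did not. The column used for the APCs carries another name (SC-DKI-MDC) and was assigned to them because no other sample or column was unmatched.

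Tests used limma 3.58.1 (R 4.3.3; lmFit, eBayes with a mean-variance trend) with Benjamini-Hochberg adjustment over all genes tested and a call at adjusted p under 0.05. Genes needed an RPKM of 1 in at least 2 libraries compared, or 3 for the CCL17 and class comparisons. DKI against WT and the DKI culture sets were read from 1 fit to the 10 Th17 libraries. The CCL17 comparison used its own 6, and the class comparison 8 DKI Th17 and 3 myeloid libraries. Myeloid groups hold 1 library each and were compared by differences of at least 2 on the log2 scale where RPKM was 5 in either library. Reads were estimated from the steps of low values, with lengths from the basic GENCODE set, chosen after the full set had given larger sums. Of low values, 74.3% to 76.5% lay within 0.1 of a whole read (20% if spread evenly). Intervals (scipy 1.17.1) and floors cover counting error only.

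Residuals of same-numbered libraries with and without CCL17 correlated at 0.798, 0.543 and 0.569 over 10785 genes. Those of replicate 2 without and replicate 3 with CCL17 correlated at 0.579, and those of replicate 3 without and replicate 2 with CCL17 at 0.541. These values set replicate 1 of both arms apart, but they cannot pair replicates 2 and 3 by number. No label pairs these libraries, so the main test was unpaired and the replicate block was an alternative. The members, gene lists and tests were chosen with earlier results of these data known. Named genes are the members, the receptors of their ligands, up to 4 genes per list and comparison with the smallest p (or largest difference), and the 3 genes most alike to a member. Alternatives were another pseudocount (0.1), no filter on low values, median centring, quantile normalization, no trend, other sets of libraries, a replicate block and leaving out each library. The procedure was tested on simulated data.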

Additional observations from a re-analysis of the deposited data

How the results depend on the processing

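The count of members called for DKI against WT ran from 0 to 2 when each library was left out in turn, and for the DKI culture sets from 1 to 3. In the class comparison the 7 members called in all libraries stayed called, with their direction, under every alternative run. For DKI against WT, leaving out each library gave differences of -0.30 to 0.78 for Tnf, -0.76 to 0.48 for Lta, -0.40 to 0.18 for Ltb, -0.47 to 0.31 for Tnfsf8, -0.31 to 1.04 for Tnfsf11 and -0.12 to 0.23 for Tnfsf14. For the culture sets it gave -0.25 to 0.83 for Tnf, -1.18 to 0.053 for Lta, -0.25 to 0.53 for Tnfsf8, 0.26 to 1.61 for Tnfsf11, -0.16 to 0.26 for Tnfsf9 and -0.054 to 0.30 for Tnfsf14. With against without CCL17 it gave -0.16 to 0.011 for Ltb, -0.11 to 0.26 for Tnfsf8, -0.20 to 0.022 for Tnfsf11 and -0.31 to 0.12 for Tnfrsf1b, none of them called, and the Ltb difference was 0.0081 with quantile normalization. For Th17 against myeloid cells, Tnfsf9 ran from -0.95 to 0.94 and was -0.31 with median centring and with quantile normalization. In untreated DKI Th17 against spinal cord libraries it was -0.90. There 9 of 9 members were called, where 74.8% of 11856 genes were. The causes of these changes were not tested. Where a group is left with 1 library, that library is assumed to vary like the other groups.

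With a replicate block the culture sets gave 0 members called (Ltb -0.96, adjusted p = 0.0857), while the genes called went from 3823 to 833 of 11507 (7.24%) and the higher share of calls from 46.5% to 69.4%. A fit of the compared libraries alone called 2423 genes and 1 member. With the block DKI against WT gave 0 members, and the CCL17 comparison gave 0 (2 genes in all). Residuals of same-numbered libraries correlated at 0.415 for DKI and WT, and at 0.072 and 0.075 for the culture sets. No label ties these numbers to a shared source, and with 2 pairs each the correlation does not settle it, for DKI and WT in particular, so neither was treated as paired. DKI against WT called 7 genes with quantile normalization, against 0, and no member. In spinal cord against bone marrow monocytes the counts of members held, and with a pseudocount of 0.1 the differences of Ltb (2.12) and Tnfsf8 (3.11) passed 2, although both lay under 5 RPKM. Levels under 1 RPKM in the myeloid libraries rest on few reads, and single libraries leave the spread between animals unmeasured.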
